A study of Rattus norvegicus with 10 samples.

Results

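A set of 10 genes of protein folding and disposal in the endoplasmic reticulum (ER), namely Hspa5, Hsp90b1, Calr, Pdia4, Dnajb9, Sdf2l1, Manf, Xbp1, Sel1l and Herpud1, was followed in the nasal epithelium of rats dosed with N,N-dimethyl-p-toluidine (DMPT). Every probe set whose only annotated symbol was one of these 10 names was taken. That gave 10 probe sets, 1 for each gene, among 31042 on the array. Male F344/N rats aged 5 to 6 weeks when the study began were gavaged for 5 days with DMPT in corn oil at 120 mg/kg/day, or with corn oil alone. DMPT is an aromatic amine that speeds the setting of acrylic dental and bone cements. Transitional epithelium, the layer between the squamous and respiratory linings of the nose, was cut out by laser capture microdissection, and each of the 10 arrays, 5 per group, was made from 1 numbered animal. The rats shared cages, and no cage numbers are given in the sources used here, so each array was treated as independent.

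The ER folds proteins destined for secretion or for membranes. Lumenal chaperones hold the chains, lectins and disulfide isomerases finish them, and those that fail are pulled back through the membrane and destroyed by the proteasome, which is called ER-associated degradation. When unfolded chains accumulate, the sensors IRE1, PERK and ATF6 start the unfolded protein response. In its classical form the IRE1 and ATF6 arms raise the transcription of chaperone and degradation genes together, through shared promoter elements. The response is especially developed in secretory cells, such as the mucous and serous cells of airway epithelium.

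After DMPT, transcripts of the co-chaperone Dnajb9, the degradation adaptor Sel1l and the ER protein Manf rose by between 0.40 and 0.47 log2 units, which is between 1.32-fold and 1.39-fold. Herpud1, a membrane component of the degradation machinery, fell by 0.38, or 1.30-fold. The other 6 genes did not pass the test, among them the major chaperones Hspa5, Hsp90b1 and Calr. Thus 3 of 10 were higher and 1 of 10 lower; over all 14217 genes with a symbol, 7.13% were higher and 6.77% lower, and of all probe sets 11.1% were called in either direction. The median difference of the 10 genes was 0.098, and that of all genes was -0.0052. A call means an adjusted p under 0.05 in limma, adjusted by Benjamini-Hochberg across the 31042 probe sets. A difference is log2 DMPT minus vehicle, with its standard error after ±, and a level is the log2 value that robust multi-array averaging (RMA) gives. Differences were taken only within a probe set. Apart from that, levels were set against array quartiles to call genes high or dim, and averaged over marker lists. The tissue holds several cell types, so fewer cells of a type and less RNA per cell cannot be told apart.

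Array medians lay between 8.21 and 8.35, and any pair of arrays had a correlation over all probe sets of at least 0.959. Vehicle replicate 2 stood apart from the other vehicle arrays. It was the highest or the lowest vehicle array for 8 of the 10 genes, beside 3, 2, 5 and 2 for vehicle replicates 1, 3, 4 and 5. Its median, 8.35, was the highest of the 10 arrays. In the fit with array weights its weight was the lowest, 0.205, and the next was 0.810. The ratio of 3' to 5' control probe sets, a measure of RNA quality, ranged from 0.873 to 1.30 log2 units after DMPT and from 1.17 to 1.50 with vehicle (two-sided exact permutation p = 0.143; the smallest possible is 0.00794). Vehicle replicate 2 had the highest ratio, 1.50, and the other vehicle arrays lay between 1.17 and 1.30. Markers of the captured tissue were high on all arrays, where the upper quartiles of the arrays were 9.96 to 10.1. The mean level of 11 epithelial genes, among them keratins and adhesion molecules but also Tp63 and Elf3, lay between 12.82 and 12.97 after DMPT. With vehicle it lay between 12.39 and 12.76, so the groups did not overlap. The difference was above 0 in 10 of the 11 (90.9%, beside 49.1% of all genes). Several lay near 0: Cdh1 at 0.00011 ± 0.075, Krt18 at 0.039 ± 0.079, Cldn4 at 0.068 ± 0.078 and Krt14 at 0.096 ± 0.10. Epcam differed by -0.068 ± 0.085. The largest were those of Krt5 (0.60), Krt7 (0.58), Elf3 (0.57, adjusted p = 0.295) and Krt8 (0.44).

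The promoters were searched for elements known from the unfolded protein response. The ER stress response element (ERSE) is CCAAT and CCACG with 9 bases between them, and the ERSE-II is ATTGG and CCACG with 1 base between them; both are known as binding sites of NF-Y together with ATF6 or XBP1. The 250 bases before the start of transcription were searched on both strands in the RefSeq promoters of build GRCr8, which held 9 of the 10 genes (all but Manf). An ERSE was found in 4 of the 9 (Hspa5, Hsp90b1, Calr and Xbp1) and in 0.0657% of all 33469 promoters, and an ERSE-II in Herpud1 and in 0.0418% of all. The UPRE core was searched only as TGACGTGG, which was found in 0 of the 9 and in 0.520% of all. Variants of these letters were not searched. CCAAT alone was found in 9 of the 9 and 34.0% of all, and CCACG alone in 8 of the 9 and 27.2% of all; both parts also lie inside each ERSE. Of these promoters 6 are shown, each from 5' to 3' in the direction of its gene and ending at the base before the start: 3 with an ERSE whose genes did not pass the test, and those of Herpud1, Dnajb9 and Sel1l, whose genes did. Not shown are Calr, which has an ERSE, and Pdia4 and Sdf2l1, which have neither an ERSE nor an ERSE-II. Calr, Pdia4 and Sdf2l1 did not pass the test either, so the 6 shown do not represent all 9. Capitals mark the ERSE or ERSE-II, or, in Dnajb9 and Sel1l, which have neither, each CCAAT and CCACG on either strand.
Hspa5: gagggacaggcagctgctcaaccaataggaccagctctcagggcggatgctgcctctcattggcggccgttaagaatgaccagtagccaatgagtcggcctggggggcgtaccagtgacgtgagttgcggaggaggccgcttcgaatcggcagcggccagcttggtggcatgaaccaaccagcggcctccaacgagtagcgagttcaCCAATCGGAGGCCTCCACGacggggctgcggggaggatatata
Hsp90b1: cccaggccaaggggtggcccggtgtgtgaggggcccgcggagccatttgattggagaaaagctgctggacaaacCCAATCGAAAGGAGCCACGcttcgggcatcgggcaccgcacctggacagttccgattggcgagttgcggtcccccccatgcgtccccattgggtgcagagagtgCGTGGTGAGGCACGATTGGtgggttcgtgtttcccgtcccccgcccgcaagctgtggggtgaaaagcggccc
Xbp1: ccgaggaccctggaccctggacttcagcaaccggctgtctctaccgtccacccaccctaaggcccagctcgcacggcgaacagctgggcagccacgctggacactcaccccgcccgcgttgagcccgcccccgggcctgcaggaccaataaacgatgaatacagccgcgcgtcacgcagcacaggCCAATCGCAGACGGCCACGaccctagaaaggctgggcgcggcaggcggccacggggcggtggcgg
Herpud1: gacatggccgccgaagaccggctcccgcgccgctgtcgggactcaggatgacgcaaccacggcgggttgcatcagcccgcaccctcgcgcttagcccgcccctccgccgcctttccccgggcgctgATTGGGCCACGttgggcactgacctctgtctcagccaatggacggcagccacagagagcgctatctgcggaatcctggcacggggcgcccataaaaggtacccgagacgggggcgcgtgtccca
Dnajb9: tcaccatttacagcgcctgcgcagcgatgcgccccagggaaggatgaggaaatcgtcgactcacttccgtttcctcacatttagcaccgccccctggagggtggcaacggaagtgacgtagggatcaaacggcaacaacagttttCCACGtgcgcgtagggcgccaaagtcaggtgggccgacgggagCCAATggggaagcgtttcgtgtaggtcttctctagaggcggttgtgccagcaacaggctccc
Sel1l: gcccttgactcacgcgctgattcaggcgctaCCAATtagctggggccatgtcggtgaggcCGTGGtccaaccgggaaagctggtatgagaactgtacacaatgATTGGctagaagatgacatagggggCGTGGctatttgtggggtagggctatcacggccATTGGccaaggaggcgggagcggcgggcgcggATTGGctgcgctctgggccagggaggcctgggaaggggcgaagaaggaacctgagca

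Hspa5 stands at chr3:38452766-38453015 (plus strand), Hsp90b1 at chr7:23012294-23012543 (minus strand), Xbp1 at chr14:84604373-84604622 (plus strand), Herpud1 at chr19:10614708-10614957 (minus strand), Dnajb9 at chr6:67002052-67002301 (minus strand) and Sel1l at chr6:116510362-116510611 (minus strand). The ERSE of Hspa5 began 43 bases before the start and that of Xbp1 65 bases before it. Hsp90b1 had a pair of them, 1 on each strand. The ERSE-II of Herpud1 began 124 bases before the start. A match describes the letters alone; binding was not measured.

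The first 4 genes are the folding enzymes of the lumen. Hspa5 encodes BiP, the HSP70 of the ER and the usual reporter of the unfolded protein response. Its levels (probe set 1370283_at) were 13.07, 12.96, 12.98, 12.87 and 12.76 in DMPT replicates 1 to 5, and 12.87, 12.99, 12.76, 12.67 and 12.87 in vehicle replicates 1 to 5. Only DMPT replicate 1 lay above every vehicle array, and DMPT replicate 5 lay below 4 of them. The difference was 0.098 ± 0.093 (adjusted p = 0.583), with a 95% interval from -0.11 to 0.30.

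Hsp90b1 encodes GRP94, the HSP90 of the ER, which folds integrins and Toll-like receptors. Its levels (1388331_at) were 13.21, 13.23, 13.14, 13.12 and 13.03 after DMPT and 13.39, 12.88, 13.24, 13.25 and 13.36 with vehicle. The 5 DMPT arrays lay below all vehicle arrays other than replicate 2, which was the lowest of the 10. The difference was -0.075 ± 0.11 (adjusted p = 0.733; interval -0.31 to 0.16), and -0.16 ± 0.076 without vehicle replicate 2 (adjusted p = 0.200).

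Calr encodes calreticulin, the calcium-binding lectin that retains unfinished glycoproteins. Its levels (1398750_at) were 12.54, 12.53, 12.57, 12.63 and 12.46 after DMPT and 12.37, 12.54, 12.35, 12.45 and 12.52 with vehicle. DMPT replicates 1, 3 and 4 lay above every vehicle array, by little. The difference was 0.097 ± 0.079 (adjusted p = 0.510; interval -0.076 to 0.27).

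Pdia4 encodes ERp72, a disulfide isomerase that works with BiP. Its levels (1370007_at) were 12.42, 11.84, 11.86, 12.07 and 11.79 after DMPT and 11.88, 10.04, 11.61, 11.50 and 11.82 with vehicle. Vehicle replicate 2 lay 1.47 below the next vehicle array, and 2 DMPT arrays lay above every vehicle array. The difference, 0.62 ± 0.31, had the highest value of the 10 but also the widest error (adjusted p = 0.237; interval -0.045 to 1.29). Without vehicle replicate 2 it was 0.29 ± 0.14 (adjusted p = 0.216), and with the RNA quality ratio in the fit 0.27 ± 0.32.

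**Figure D1:**
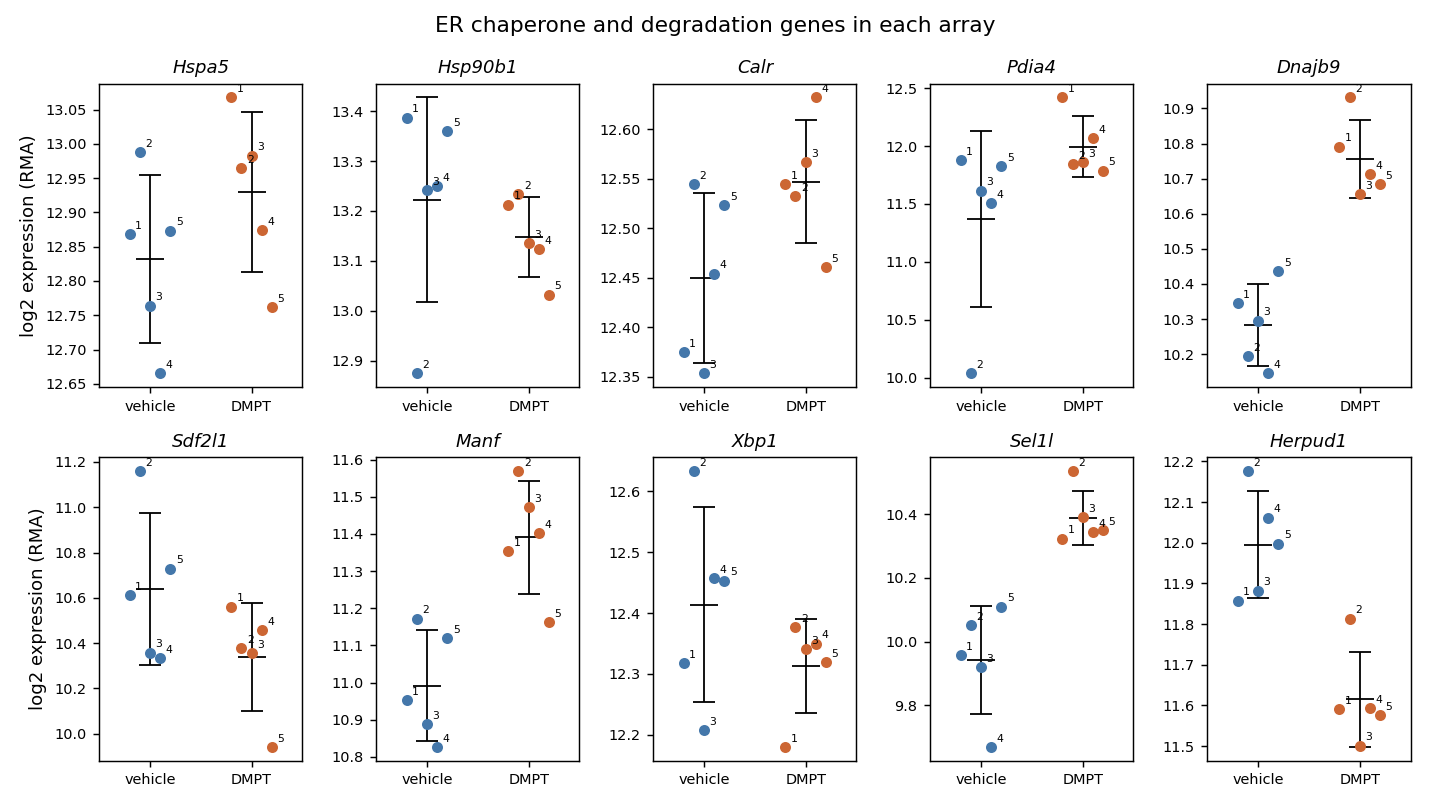
Levels of the 10 genes (log2 RMA value, vertical axis, a scale of its own in each panel) in the 5 vehicle and 5 DMPT arrays. Points carry the replicate number, the horizontal bar is the mean and the whiskers are 1 SD; Dnajb9, Sel1l and Herpud1 are the panels in which the groups do not overlap, and vehicle replicate 2 is the low point of Pdia4, at 10.04.

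Among the partners of BiP, Dnajb9 gave the smallest p of the 10. It encodes ERdj4, a J-domain co-chaperone that is induced through XBP1, binds misfolded proteins and helps return IRE1 to its inactive state. Its levels (1387116_at) were 10.79, 10.93, 10.66, 10.71 and 10.68 after DMPT and 10.35, 10.19, 10.29, 10.15 and 10.44 with vehicle. All 5 DMPT arrays lay above all 5 vehicle arrays. The means were 10.75 ± 0.11 and 10.28 ± 0.12 (SD, n = 5 each), and Dnajb9 rose by 0.47 ± 0.091 or 1.39-fold (adjusted p = 0.00709). Its adjusted p lay between 0.00883 and 0.0197 without each array in turn.

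Sdf2l1, a soluble protein that joins BiP and its co-chaperones in the lumen, was not called. Its levels (1373043_at) were 10.56, 10.38, 10.36, 10.46 and 9.94 after DMPT and 10.61, 11.16, 10.36, 10.33 and 10.73 with vehicle. DMPT replicates 1 to 4 lay within the vehicle range and replicate 5 below it. The difference was -0.30 ± 0.17 (adjusted p = 0.304; interval -0.67 to 0.066), and -0.17 ± 0.14 without vehicle replicate 2.

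Manf encodes a small protein of the lumen that binds BiP and is secreted under ER stress, with protective effects on neurons and secretory cells. Its levels (1372352_at) were 11.35, 11.57, 11.47, 11.40 and 11.16 after DMPT and 10.95, 11.17, 10.89, 10.83 and 11.12 with vehicle. DMPT replicates 1 to 4 lay above every vehicle array, and DMPT replicate 5 lay just under vehicle replicate 2. Manf rose by 0.40 ± 0.10 or 1.32-fold (adjusted p = 0.0309). The call was lost without DMPT replicates 1, 2, 3 or 4 or vehicle replicates 1, 3 or 4, with differences from 0.36 to 0.46 and adjusted p from 0.0161 to 0.0809 over the 10 omissions.

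Xbp1, the transcription factor whose messenger is spliced by active IRE1, differed little in total level. Its levels (1371249_at) were 12.18, 12.38, 12.34, 12.35 and 12.32 after DMPT and 12.32, 12.63, 12.21, 12.46 and 12.45 with vehicle. DMPT replicates 2 to 5 lay within the vehicle range and replicate 1 just below it. The difference was -0.10 ± 0.096 (adjusted p = 0.584; interval -0.31 to 0.11), and -0.046 ± 0.082 without vehicle replicate 2. Spliced and unspliced forms were not separated here, so these values do not report on splicing.

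The last pair of genes act in degradation, and they went opposite ways. Sel1l encodes the adaptor that holds the ubiquitin ligase HRD1 and passes substrates to it. Its levels (1376073_at) were 10.32, 10.54, 10.39, 10.34 and 10.35 after DMPT and 9.96, 10.05, 9.92, 9.67 and 10.11 with vehicle. The lowest DMPT array lay above the highest vehicle array. The means were 10.39 ± 0.086 and 9.94 ± 0.17 (SD, n = 5 each). Sel1l rose by 0.45 ± 0.099 or 1.36-fold (adjusted p = 0.0140), and its call was kept without each array in turn, with adjusted p from 0.0105 to 0.0372.

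Herpud1 encodes a ubiquitin-like membrane protein that gathers HRD1 complexes and is a common marker of ER stress. Its levels (1367741_at) were 11.59, 11.81, 11.50, 11.59 and 11.58 after DMPT and 11.86, 12.18, 11.88, 12.06 and 12.00 with vehicle. All 5 DMPT arrays lay below all 5 vehicle arrays, with DMPT replicate 2 the nearest to them. The means were 11.61 ± 0.12 and 11.99 ± 0.13 (SD, n = 5 each). Herpud1 fell by 0.38 ± 0.095 (adjusted p = 0.0251). The call was lost without DMPT replicates 1, 3, 4 or 5 or vehicle replicates 4 or 5 (adjusted p from 0.0213 to 0.0712, differences from -0.43 to -0.33) and with the RNA quality ratio in the fit (-0.33, adjusted p = 0.108).

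**Figure D2:**
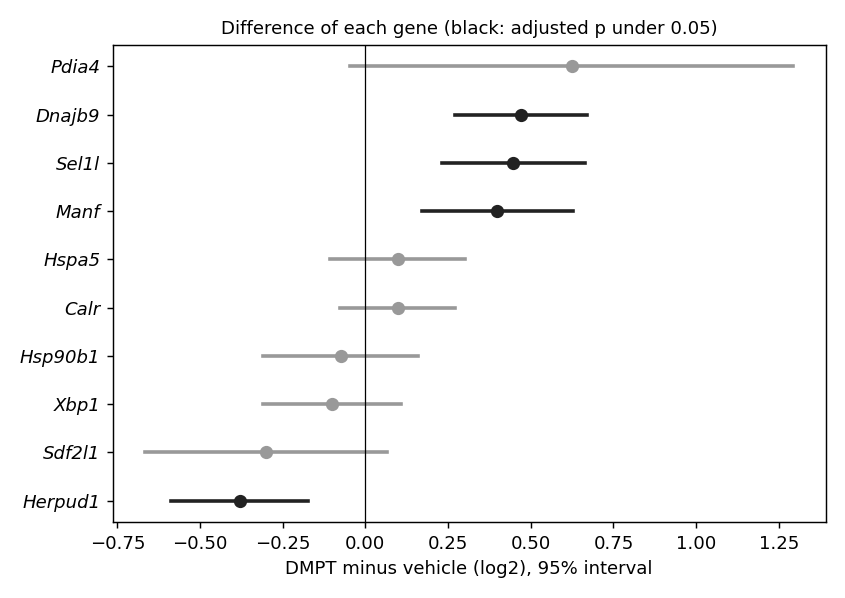
Difference between DMPT and vehicle (log2, horizontal axis) for each of the 10 genes, with its 95% interval from limma; black marks the genes with an adjusted p under 0.05. The whole intervals of Sel1l, Dnajb9 and Manf lie above 0 and that of Herpud1 below it, and the interval of Pdia4 is the widest, from -0.045 to 1.29.

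The groups did not overlap for Dnajb9, Sel1l and Herpud1, that is 3 of 10 genes, beside 13.9% of all genes. Within the groups the 10 genes varied little in most arrays: apart from Pdia4 with vehicle (SD 0.76), SDs ran from 0.062 to 0.34. DMPT replicate 2 was the highest DMPT array for 6 of the 10 genes, Dnajb9, Manf, Sel1l, Herpud1, Hsp90b1 and Xbp1. DMPT replicate 5 was the lowest for 6, Hspa5, Hsp90b1, Calr, Pdia4, Manf and Sdf2l1. Vehicle replicate 2 was the highest vehicle array for Hspa5, Calr, Manf, Sdf2l1, Xbp1 and Herpud1 and the lowest for Hsp90b1 and Pdia4. Without that array, 3 genes were higher and 1 lower, as with all arrays.

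**Figure D3:**
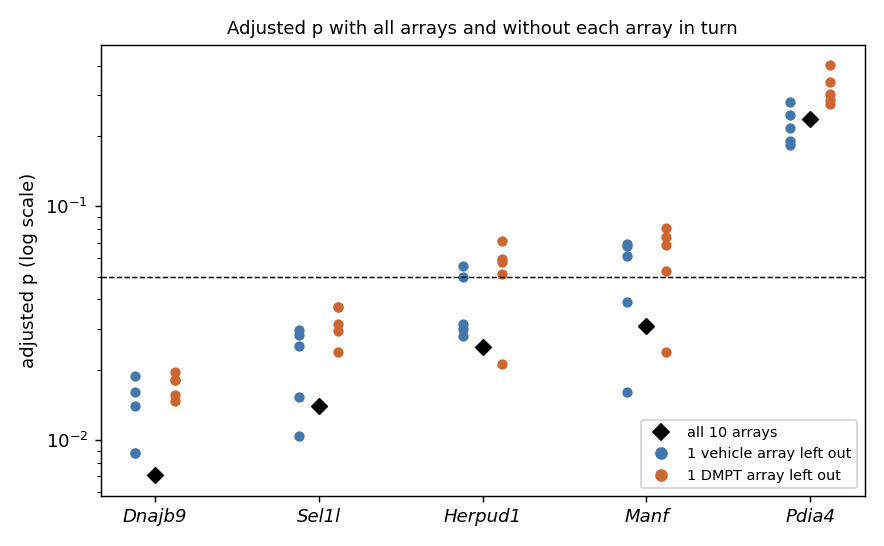
Adjusted p (log scale, vertical axis) of the 4 called genes and Pdia4 with all 10 arrays (black diamond) and with each array left out in turn (points, coloured by the group of that array); the dashed line is 0.05. Dnajb9 and Sel1l stay under the line in each omission, with highest values of 0.0197 and 0.0372, whereas Herpud1 and Manf cross it, up to 0.0712 and 0.0809.

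Other genes of ER folding and export showed few calls. Of 151 sought in 6 lists, 143 were measured; 10 were higher and 4 lower, or 6.99% and 2.80%, beside 7.13% and 6.77% of all genes. Their median difference was 0.075, and 88 of the 143 differences were above 0, which is 61.5%, against 49.1% of all genes. The groups did not overlap for 27 of them, or 18.9%, beside 13.9% of all genes. The higher count was 16 without vehicle replicate 2 and between 3 and 6 without any other single array except vehicle replicate 5, where it was 7. The lower count was 2 without DMPT replicates 3 or 4 or vehicle replicate 4.

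Of 20 sensors and effectors of the unfolded protein response, 0 were higher and 2 lower in limma (1 higher and 3 lower at an unadjusted p under 0.05). The shares called were 0% and 10%, beside 7.13% and 6.77% of all genes, and the median was 0.080. For 2 of the 20 (10%, beside 13.9% of all genes) the groups did not overlap. Creb3l4, an ER-bound transcription factor related to ATF6, fell by 1.10 ± 0.16 (adjusted p = 0.00113), from 10.61 ± 0.13 with vehicle to 9.51 ± 0.35 after DMPT (SD, n = 5 each). Ppp1r15a, which encodes GADD34, the subunit that reverses the PERK signal, fell by 0.53 ± 0.15 (adjusted p = 0.0458), a call lost without 8 of the 10 arrays in turn (all but DMPT replicate 5 and vehicle replicate 5). Atf6b, a relative of ATF6, differed by 0.48 ± 0.15 (adjusted p = 0.0619). Ddit3, which encodes the stress factor CHOP, differed by -0.23 ± 0.11 (adjusted p = 0.251) and Atf4 by -0.14 ± 0.12 (adjusted p = 0.539). The higher count was 2 without vehicle replicate 2. Ern1 and Ern2, the genes of IRE1, were not measured under those symbols.

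Of 28 other chaperones and lectin-cycle genes, 2 were higher and 1 lower, with a median of 0.015. The shares called were 7.14% and 3.57%, beside 7.13% and 6.77% of all genes. The groups did not overlap for 9 of the 28 (32.1%, beside 13.9% of all genes). The HSP70 relative Hspa13 rose by 0.42 ± 0.11 (adjusted p = 0.0297) and the calcium-binding protein gene Calu by 0.33 ± 0.091 (adjusted p = 0.0373). Sil1, the nucleotide exchange factor of BiP, fell by 0.63 ± 0.16 (adjusted p = 0.0258). Hyou1, another exchange factor and the large HSP70 of the ER, differed by 0.32 ± 0.095 (adjusted p = 0.0502). The co-chaperone Dnajc1 differed by -0.33 ± 0.098 (adjusted p = 0.0534). The calls of Hspa13 and Sil1 were each lost in 5 of the 10 omissions and with the RNA quality ratio in the fit (adjusted p = 0.134 and 0.128), and that of Calu in 8; the higher count was 0 without DMPT replicates 2, 4 or 5 or vehicle replicate 4, and the lower count ran from 0 (without DMPT replicates 3, 4 or 5 or vehicle replicates 4 or 5) to 3 without vehicle replicate 2.

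Disulfide isomerases and oxidases, the relatives of Pdia4, had the most calls for their number among the 6 lists. Of 19 genes, 4 were higher (21.1%, beside 7.13% of all genes) and 1 lower (5.26%, beside 6.77%). The median was 0.087, and the groups did not overlap for 3 of the 19 (15.8%, beside 13.9% of all genes). Agr2, an isomerase that mucous cells need to make mucin, fell by 0.79 ± 0.10 (adjusted p = 0.000614) and kept its call without each array in turn. Prdx4, the peroxiredoxin of the ER, rose by 0.72 ± 0.15 (adjusted p = 0.0119), with means of 9.83 ± 0.098 after DMPT and 9.12 ± 0.36 with vehicle (SD, n = 5 each). Ero1a, the oxidase that recharges the isomerases, rose by 0.52 ± 0.13 (adjusted p = 0.0247), and its second probe set by 0.82 ± 0.13. The call of Ero1a was lost without DMPT replicates 2 or 3 or vehicle replicates 1 or 3, and with the RNA quality ratio in the fit (adjusted p = 0.0628). Erp29 and Txndc11 were the other higher genes, with calls lost in 8 and 9 of the 10 omissions. Pdia6 differed by 0.31 ± 0.093 (adjusted p = 0.0532). The higher count was 1 without DMPT replicates 2 or 3 or vehicle replicates 1 or 3, and 2 without DMPT replicates 1 or 4 or vehicle replicates 4 or 5.

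Of 28 other genes of ER-associated degradation, 1 was higher and 0 lower in limma (5 and 1 at an unadjusted p under 0.05). The shares called were 3.57% and 0%, beside 7.13% and 6.77% of all genes, and the median was 0.0054. For 5 of the 28 (17.9%, beside 13.9% of all genes) the groups did not overlap. The ubiquitin-conjugating enzyme gene Ube2j1, a partner of the HRD1 complex, rose by 0.53 ± 0.12 (adjusted p = 0.0193) and kept its call without each array in turn. Its levels were 9.94 ± 0.055 after DMPT and 9.41 ± 0.27 with vehicle (SD, n = 5 each). Nploc4, a cofactor of the VCP extractor, differed by 0.34 ± 0.11 (adjusted p = 0.0671) and the lectin gene Os9 by -0.25 ± 0.092 (adjusted p = 0.105). Syvn1, the gene of HRD1, which Sel1l holds, differed by 0.097 ± 0.13 (adjusted p = 0.709).

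The last lists hold genes of entry to and exit from the ER. Of 26 translocon and N-glycosylation genes, 1 was higher and 0 lower in limma (6 and 0 at an unadjusted p under 0.05). The shares called were 3.85% and 0%, beside 7.13% and 6.77% of all genes, and the median was 0.12. For 4 of the 26 (15.4%, beside 13.9% of all genes) the groups did not overlap. Ostc, a subunit of oligosaccharyltransferase, rose by 0.91 ± 0.17 (adjusted p = 0.00505), the largest rise among the 143 genes, from 10.06 ± 0.37 to 10.97 ± 0.17 (SD, n = 5 each). The signal peptidase genes Sec11c and Spcs3 differed by 0.29 ± 0.096 (adjusted p = 0.0751) and 0.44 ± 0.15 (adjusted p = 0.0847); without vehicle replicate 1 Spcs3 passed. Of 22 genes of COPII transport and retrieval, the coat gene Sec24d rose by 0.38 ± 0.10 (adjusted p = 0.0357) and the cargo receptor gene Lman1 by 0.51 ± 0.14 (adjusted p = 0.0420), and 0 were lower in limma (5 higher and 0 lower at an unadjusted p under 0.05). The median of that list was 0.11, and 18 of its 22 differences were above 0 (81.8%, beside 49.1% of all genes). In the other pathway lists the share above 0 ran from 53.6% to 63.2%. The shares called were 9.09% higher and 0% lower, beside 7.13% and 6.77% of all genes. The groups did not overlap for 4 of the 22 genes (18.2%, beside 13.9% of all genes). Tmed10 differed by 0.24 ± 0.086 (adjusted p = 0.0937). Vehicle replicate 2 was the lowest vehicle array for Ostc (9.53), Spcs3 (11.36) and Lman1 (8.89). Over the 10 omissions the difference ran from 0.78 to 1.01 for Ostc, from 0.30 to 0.53 for Spcs3 and from 0.37 to 0.57 for Lman1. Neither COPII call was kept without any one DMPT array or without vehicle replicate 4, nor with the RNA quality ratio in the fit (adjusted p = 0.165 for Sec24d and 0.207 for Lman1); the call of Sec24d was also lost without vehicle replicate 1, and that of Lman1 without vehicle replicates 3 or 5.

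**Figure D4:**
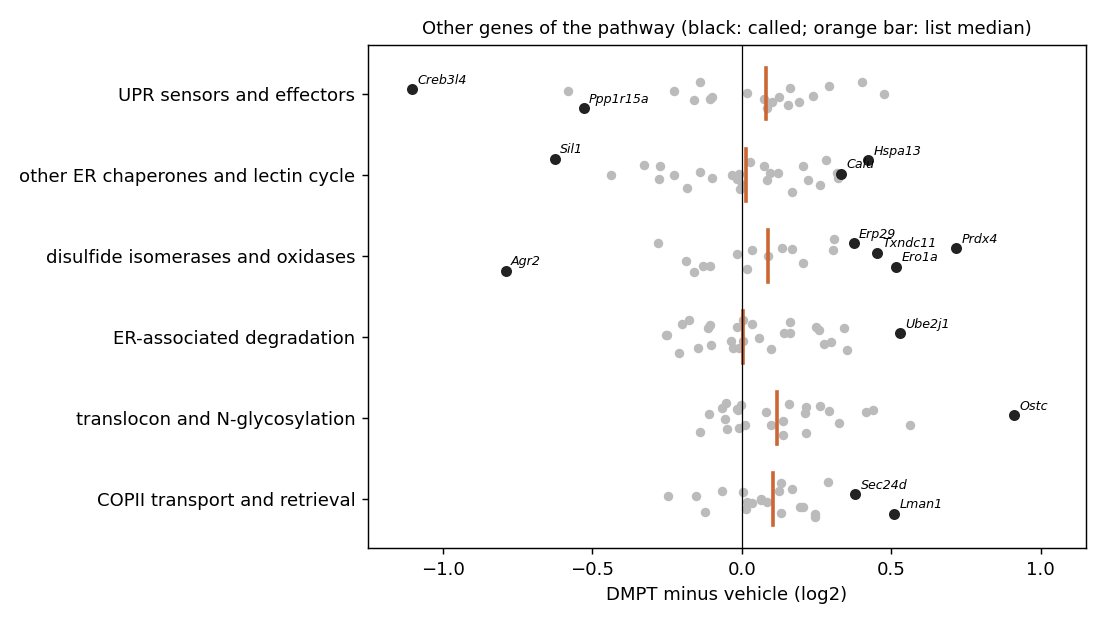
Difference between DMPT and vehicle (log2, horizontal axis) for the 143 other genes of the pathway, 1 point per gene, in 6 lists; black points with names are the 14 called genes and orange bars the list medians, which lie between 0.0054 and 0.12. Ostc is the point farthest to the right and Creb3l4 the one farthest to the left, and most points lie near 0.

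Markers of secretory and gland cells, which use this machinery heavily, differed in both directions. Of 17 such genes, 6 were lower (35.3%, beside 6.77% of all genes), Galnt6 was higher (5.88%, beside 7.13%) and 10 did not pass; at an unadjusted p under 0.05 the counts were 7 lower and 3 higher. Azgp1, a zinc-binding secreted glycoprotein, fell by 2.36 ± 0.19. Pigr, which encodes the carrier of secreted antibodies, fell by 1.79 ± 0.15. Tff3, Gp2, Aqp5 and Lyz2 were the other lower genes. Lyz2 was at the edge of the threshold (adjusted p = 0.0495) and lost its call in 9 of the 10 omissions, all but that of vehicle replicate 2, and Aqp5 lost its call without DMPT replicate 5. The difference was above 0 in 7 of the 17, and that of Dmbt1, a secreted mucosal glycoprotein, was 2.32 ± 0.78 (adjusted p = 0.0812). The mucin genes Muc5ac and Muc5b differed by 1.29 ± 0.42 (adjusted p = 0.0711) and 0.018 ± 0.38 (adjusted p = 0.985). Spdef differed by -0.63 ± 0.20 (adjusted p = 0.0619). Leaving out DMPT replicate 3 gave 2 higher genes; leaving out DMPT replicate 5 gave 3 higher and 4 lower. The mean level of the 17 lay between 8.37 and 9.35 after DMPT and between 8.89 and 9.46 with vehicle, and Foxa3, Scgb1a1 and Bpifa2 were dim, under the lower quartile of every array (6.37 to 6.51). Agr2 and Creb3l4 fell in the same arrays as these secretory genes went both ways, and Herpud1 fell while Sel1l and Dnajb9 rose. The part of a change in secretory cells in these results was not tested.

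Of 9 plasma and B cell genes, Sdc1, which epithelial cells also express, and Prdm1 were higher and Cd37 lower. The shares called were 22.2% and 11.1%, beside 7.13% and 6.77% of all genes. The mean level of the 9 genes was 6.77 to 6.90 after DMPT and 6.65 to 6.83 with vehicle. The defining genes Tnfrsf17 and Ms4a1 were dim, under that same quartile. Prdm1 (5.38 with vehicle, 6.25 after DMPT) and Cd37 (6.29 and 5.83) had group means under it too, and each lost its call in 7 of the 10 omissions. The higher count was 1 without DMPT replicates 1, 3 or 4 or vehicle replicates 1, 2, 4 or 5, and Cd37 kept its call without DMPT replicate 3 or vehicle replicates 2 or 3. Of 7 squamous cell genes, Krt4, Sprr1a and Sfn were higher and 0 lower in limma (4 and 0 at an unadjusted p under 0.05). The share higher was 42.9%, beside 7.13% of all genes. The mean level of the squamous genes was 6.45 to 7.03 with vehicle and 7.83 to 8.65 after DMPT. Sprr1b, Sprr3 and Ivl were dim, with means under the lower quartile of every array. They differed by -0.0053 ± 0.13, 0.17 ± 0.16 and 0.0080 ± 0.11 (adjusted p = 0.987, 0.570 and 0.977). Krt13 differed by 0.52 ± 0.16 (adjusted p = 0.0664). Of 8 motile cilia genes, 7 were lower (87.5%, beside 6.77% of all genes), with Ccno at -2.84 ± 0.51 and Dnah1 at -1.77 ± 0.33. In limma 0 were higher (0 higher and 8 lower at an unadjusted p under 0.05). The mean level of the cilia genes was 8.77 to 10.5 after DMPT and 10.5 to 11.9 with vehicle. The lower count of the cilia genes was 4 without DMPT replicates 3, 4 or 5 or vehicle replicates 2, 4 or 5, and 3 with the RNA quality ratio in the fit; Dnai1 lost its call in 6 of the 10 omissions and Tekt1 and Foxj1 in 7 each. Among the 11 epithelial genes Krt5, Krt8 and Krt7 were higher (27.3%, beside 7.13% of all genes). Krt7 had no call when DMPT replicates 2 or 5 or vehicle replicates 1 or 4 were left out. The part of these shifts in the values of the 10 ER genes was not tested.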

How the data were processed

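Nasal transitional epithelium of 10 rats was measured on 10 arrays, 1 per animal. The authors deposited log2 expression per probe set, made with RMA per the submitters' processing notes; its version and any filter of probes were not given in the sources used here. Precision is limited by the number of arrays. Of 31099 probe sets, 57 controls were left out. Symbols came from the platform annotation: 20826 probe sets had 1, 436 several and 9780 none. A gene was represented by its brightest probe set. DMPT was set against vehicle with lmFit and eBayes of limma 3.58.1 (R 4.3.3), with no filter. Per the labels, the authors' own comparison used ORIOGEN with a 5% FDR, which was not run here. The RNA quality ratio was compared with a two-sided exact permutation test (scipy 1.17.1). P-values measure the spread among these animals. On simulated data for this comparison with 31042 probe sets, limma recovered 73% of changes of 1 log2 unit and 97% of changes of 2. Only 100 probe sets were changed at each size there, in independent normal noise. In the data 11.1% of probe sets were called, and recovery after adjustment depends on that share.

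The 10 genes and all lists were chosen with earlier results of these data known. Named were the 10 genes, the 3 genes with the smallest p in each of 6 pathway lists and the 2 with the smallest p in each of 5 marker lists; all other genes were named after their values were seen. Tried as alternatives were a variance trend with robust estimates, array weights, the RNA quality ratio as a covariate, a replicate block, leaving out the dimmest 25% of probe sets, centring on array medians, other choices of probe set, and each array left out. Deviations of arrays with the same replicate number correlated at -0.07 to 0.23. Arrays with different numbers were not set beside them, so these values do not decide whether the numbers mark pairs. The numbers were not taken as pairs in the main fit. Promoters were read from RefSeq, build GRCr8, and used for sequence alone.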

Additional observations from a re-analysis of the deposited data

Results flagged for a closer look

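In 7 of 106 groups of 5 arrays examined for the named genes, 1 array lay far from the other 4 by Dixon's test; chance flags about 1 in 20 groups. Vehicle replicate 2 was that array in 4 of the 7. It was low for Pdia4, at 10.04, and for Hsp90b1, at 12.88. It was also low for Nploc4, at 10.95, and for Lman1, at 8.89. DMPT replicate 5 was high for Atf6b, at 11.44, and low for Spcs3, at 12.21. Vehicle replicate 1 was high for Krt5, at 12.86.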

How the results depend on the processing

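The direction of each of the 10 genes was kept in all 16 alternatives run for it. The variance trend, the replicate block and leaving out the dimmest probe sets could not change a direction, since they leave the difference itself unchanged. Centring on array medians shifted all 10 genes by the same amount. Dnajb9 and Sel1l stayed called in all of them; Manf lost its call in 8 and Herpud1 in 7, and the other 6 genes were called in none. With the RNA quality ratio in the fit, 951 probe sets were lower over the array, where the main analysis had 1783, 0 of the 10 genes were lower (Herpud1 at an adjusted p of 0.108) and 2 pathway genes were lower. The count of higher pathway genes was 17 with array weights, 16 with the variance trend and 17 with the mean of a gene's probe sets. Without each array in turn, lower probe sets numbered 1022 to 1886, lower members of the 10 genes 0 to 1, higher pathway genes 3 to 16 and lower pathway genes 2 to 5. The replicate block gave 2 higher and 1 lower of the 10 genes, with Manf at an adjusted p of 0.0592, and 7 higher and 4 lower pathway genes; over the array it gave 1545 higher and 1825 lower probe sets. The causes were not tested. Having 5 arrays per group limits what can be seen. In the simulated data 73% of changes of 1 log2 unit were recovered, and the differences of the 10 genes were all smaller than 1 log2 unit. The simulation changed 100 probe sets at that size, whereas 11.1% of probe sets were called in the data. The 73% is therefore not the recovery rate for these 10 genes.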
